A study of Mus musculus with 36 samples.

Results

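The 10 genes described here are the glucocorticoid receptor gene Nr3c1, the steroid-activating enzyme gene Hsd11b1 and 8 genes that glucocorticoids are known to induce (Fkbp5, Tsc22d3, Ddit4, Klf9, Klf15, Zbtb16, Sgk1 and Errfi1). They, and the gene lists used further below, were chosen with earlier results of these data known. The 10 were picked by symbol out of 14702 genes in the deposited table of read counts. All 10 were in the table, and all 10 passed the filter on low counts in both tissues. Liver and quadriceps, a thigh muscle, came from male C57BL6/J mice of 12 to 14 weeks that had either a laparotomy alone (sham) or a 70% partial hepatectomy (PHx), the surgical removal of most of the liver, after which the remnant regrows. Each tissue had 3 sham libraries and 5 PHx libraries at each of days 1, 3 and 7, which makes 36 libraries of total RNA. The days come from the sample titles, while the treatment field of every sample reads day 3, so the day on which sham mice were sampled is not given. The 3 sham libraries of a tissue are the controls of all 3 of its days, so its day-by-day comparisons are not independent. The labels do not say whether a replicate number marks the same mouse in both tissues.

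Glucocorticoids (corticosterone in the mouse) are adrenal steroids of the stress and fasting response. Their receptor waits in the cytoplasm in a complex with heat shock protein 90 and its co-chaperones. Once it binds hormone it moves to the nucleus and acts at response elements, of which the best known is a palindrome of paired half-sites. In liver the hormone favours gluconeogenesis and amino acid use, and in skeletal muscle it favours protein breakdown and restrains growth signalling.

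Promoter windows of 8 of the 10 genes, all but Nr3c1 and Zbtb16, were scanned in RefSeq's table for GRCm38.p6, the assembly of mm10. They are 16 windows that run from 250 bases before to 50 bases after an annotated start. Shown are the windows of the gene with the exact palindrome (Sgk1), of Fkbp5 and Klf15, which carry the other E-boxes, and of Ddit4, which had the largest fold changes of the 10. Capitals mark the searched motifs: the full response element (AGAACA and TGTTCT with 3 bases between them), its half-site AGAACA or TGTTCT on either strand, and the E-box CACGTG, which clock proteins and other helix-loop-helix factors bind.

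Sgk1 (chr10:21993640-21993939, plus strand): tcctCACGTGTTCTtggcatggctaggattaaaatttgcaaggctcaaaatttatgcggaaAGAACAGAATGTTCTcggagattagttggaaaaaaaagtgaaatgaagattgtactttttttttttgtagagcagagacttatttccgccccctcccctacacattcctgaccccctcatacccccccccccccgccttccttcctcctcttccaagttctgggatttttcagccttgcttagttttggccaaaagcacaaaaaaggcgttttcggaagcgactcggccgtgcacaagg

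Klf15 (chr6:90462326-90462625, plus strand): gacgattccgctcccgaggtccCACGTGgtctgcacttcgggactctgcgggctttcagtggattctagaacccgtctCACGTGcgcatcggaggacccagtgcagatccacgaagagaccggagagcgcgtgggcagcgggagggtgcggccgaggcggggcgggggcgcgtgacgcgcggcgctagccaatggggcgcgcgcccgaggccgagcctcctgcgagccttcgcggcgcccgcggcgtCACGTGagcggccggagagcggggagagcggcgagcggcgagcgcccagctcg

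Fkbp5 (chr17:28486100-28486399, minus strand): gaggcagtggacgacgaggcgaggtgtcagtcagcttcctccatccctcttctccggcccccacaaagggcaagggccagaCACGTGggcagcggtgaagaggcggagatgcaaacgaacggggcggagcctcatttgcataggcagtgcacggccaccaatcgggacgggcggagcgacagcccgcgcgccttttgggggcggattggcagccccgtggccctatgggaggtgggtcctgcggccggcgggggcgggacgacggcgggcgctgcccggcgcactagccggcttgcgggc

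Ddit4 (chr10:59951721-59952020, minus strand): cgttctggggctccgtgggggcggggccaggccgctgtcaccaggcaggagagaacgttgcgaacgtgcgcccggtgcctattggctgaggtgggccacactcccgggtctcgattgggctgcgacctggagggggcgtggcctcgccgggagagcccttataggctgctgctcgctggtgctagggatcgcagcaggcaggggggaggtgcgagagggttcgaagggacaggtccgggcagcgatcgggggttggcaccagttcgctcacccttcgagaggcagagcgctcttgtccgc

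The Sgk1 window holds the full palindrome, which itself contains a half-site on each strand, and upstream of it an E-box whose last letters overlap another half-site. Over 32817 mouse promoter windows of the same length, the exact palindrome was in 3 (0.00914%), a half-site in 19.0% and an E-box in 7.15%. Among the members' 16 windows, 1 held the palindrome, 4 a half-site and 3 an E-box. The half-site windows belong to 2 genes, Sgk1 and Tsc22d3, each with several windows, so the windows are not independent. The Klf15 window has E-boxes starting -228, -172 and -3 bases from the start, the Fkbp5 window has one at -169, and the Ddit4 window holds none of the motifs. A match is a description of these letters, and its absence says only that they are not in the window.

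The libraries held 12464547 to 28862458 counted reads in liver and 15506197 to 29623890 in quadriceps, and levels are given as CPM, counts scaled to 1000000 reads per library. Hepatocyte markers (6 genes, Alb among them) summed to 53319 to 76409.7 CPM in liver at day 3 and muscle fibre markers (7 genes, Ckm among them) to 111998 to 199649 CPM in quadriceps at day 3, the lowest group of each tissue. Muscle fibre markers in liver summed to 521 to 974 CPM in sham, 969 and 1597 in day 1 replicates 1 and 2, and at most 216 in the other PHx libraries. Hepatocyte markers in quadriceps summed to 133 to 538 CPM in sham and 10.6 to 468.5 after PHx. Adipocyte markers (6 genes) in quadriceps summed to 702 to 3008 CPM in sham, 136.66 to 621 at day 1, 176 to 515 at day 3 and 163 to 2288 at day 7, and 6 of 6 fell at day 3. Neutrophil markers (5 genes) summed to under 1 CPM in every sham library of both tissues and to 6.33 to 32.7 in liver and 3.92 to 5.79 in quadriceps at day 3. The 5 pancreatic islet hormone genes were at 0 in liver sham, 6.64 to 186 CPM in liver at day 3 and 9.21 to 68.1 at day 7, while in quadriceps they were at 6.67 to 31.3 in sham, 0.0522 to 48.3 at day 1 and at most 0.205 later. The part of these traces in the members' levels was estimated only for reads of the other tissue, with shares for Hsd11b1, Ddit4 and Errfi1 given below. In bulk tissue, fewer cells of a type and less RNA per cell cannot be told apart.

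In quadriceps most of the glucocorticoid-induced genes rose at days 1 and 3 after PHx, whereas in liver members were called in both directions. Counted at an adjusted p under 0.05 (edgeR's quasi-likelihood test, Benjamini-Hochberg adjustment over all genes), 7 of the 10 rose in quadriceps at day 1, when 3.04% of all 13601 tested genes rose and 2.26% fell, and 9 of the 10 rose at day 3, when 24.8% rose and 22.6% fell. At quadriceps day 7 none was called by edgeR (4 at an unadjusted p under 0.05, and 2 by DESeq2), and 0.0441% of all genes rose and 0.0147% fell. In liver 3 rose and 2 fell at day 1 (background 16.7% and 11.0% of 13879 genes), 3 rose and 3 fell at day 3 (15.8% and 12.8%), and 1 rose and 3 fell at day 7 (12.4% and 6.74%). The members' median log2 fold change in quadriceps was 2.10, 2.16 and 0.74 at days 1, 3 and 7, and that of all genes was 0.02, -0.02 and 0.02. In liver the members' medians were 0.48, -0.21 and -0.37 beside 0.06, 0.04 and 0.05 over all genes. Counted without a test, as genes whose PHx libraries all lay above all sham libraries in CPM, 8 of the 10 did so in quadriceps at day 1, 8 at day 3 and 3 at day 7, beside 7.34%, 24.1% and 5.93% of all genes. Wholly below sham lay 0 of the 10 at each quadriceps day, beside 20.0%, 21.9% and 2.52%. In liver 5, 3 and 2 of the 10 were wholly above sham at days 1, 3 and 7 (11.3%, 33.1% and 24.0% of all genes), and 2, 3 and 3 wholly below (14.2%, 18.2% and 7.57%). The day 1 count in quadriceps rests on few controls: it was 0 without any 1 of the 3 sham libraries or without day 1 replicate 2, 2 without day 1 replicate 4 and 1 without day 1 replicate 5. Over all genes, the 720 calls of that comparison became 0 without any 1 sham library and 4 without day 1 replicate 2. The liver day 7 counts were 0 rises and 1 fall without any 1 of the 3 sham libraries. The authors' deposited table, at an FDR under 0.05, called 8 rises and no fall at quadriceps day 1, 9 rises at day 3, and at day 7 the rises of Fkbp5, Ddit4 and Errfi1. In liver that table called the same members in the same direction as here at days 1 and 3, and at day 7 all but Nr3c1, whose FDR there is 0.0550.

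**Figure D1:**
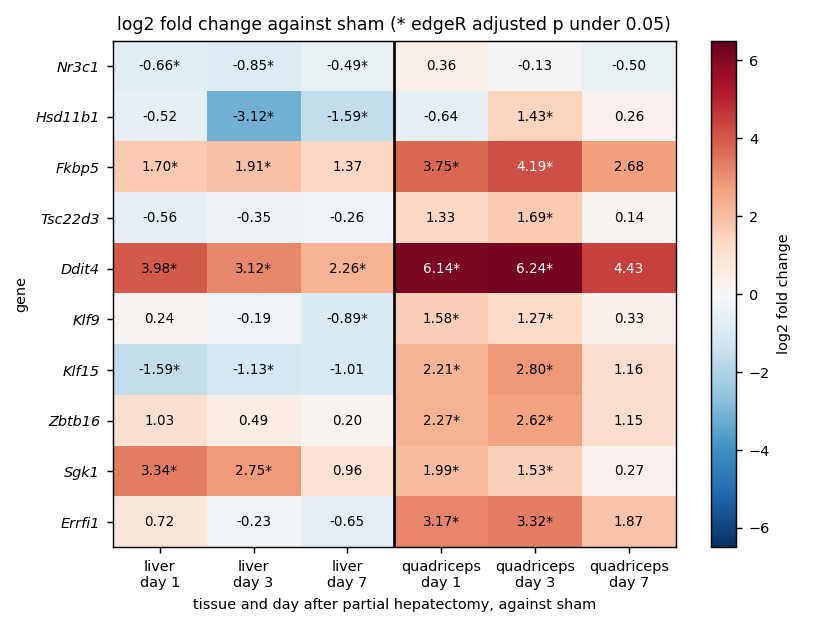
The heat map gives the log2 fold change of each of the 10 genes (rows) at each day against sham in liver and quadriceps (columns), with red for higher and blue for lower than sham and an asterisk for an adjusted p under 0.05. The 3 quadriceps columns are red for all 8 induced genes, from 6.24 for Ddit4 at day 3 to 0.14 for Tsc22d3 at day 7. Nr3c1, Hsd11b1, Tsc22d3 and Klf15 are below sham in all 3 liver columns, Tsc22d3 without an asterisk.

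**Figure D2:**
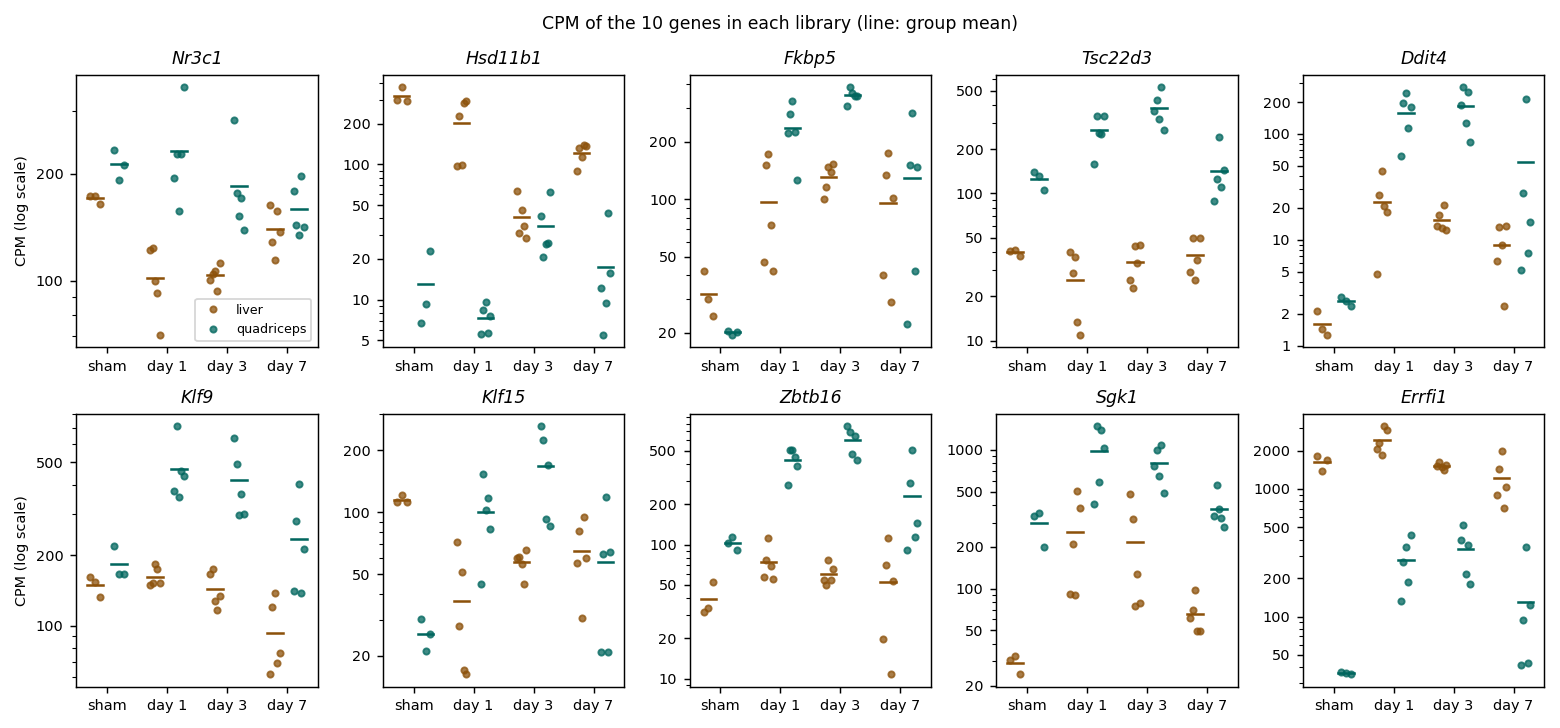
Each panel shows 1 gene, with CPM on a log axis against condition. Each point is a library (brown for liver, green for quadriceps; 3 sham libraries and 5 per day) and each line a group mean. Fkbp5, Ddit4, Klf15, Zbtb16 and Errfi1 in quadriceps spread widely at day 7, as in Fkbp5 from 22.2 to 281 CPM and in Ddit4 from 5.17 to 214 CPM.

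Nr3c1, the receptor itself, fell in liver at every day after PHx and was not called in quadriceps. Liver libraries had it at 174, 174 and 165 CPM in sham and 122, 124, 100.1, 92.2 and 70.4 CPM at day 1. Day 3 libraries stood at 100.3, 105, 107, 93.9 and 112 CPM and day 7 libraries at 163, 128, 114, 157 and 137.20 CPM. In CPM every PHx library lay below all 3 sham libraries, the lowest being day 1 replicate 5. With the library scaling of the test the fall was largest at day 3, and the rise from day 3 to day 7 was not called (adjusted p = 0.195). The log2 fold change (± SE) was -0.66 ± 0.14 (adjusted p = 0.00489) at day 1, -0.85 ± 0.14 (adjusted p = 0.000708) at day 3 and -0.49 ± 0.14 (adjusted p = 0.0258) at day 7, the last of which lost its call without any 1 of sham replicates 1, 2 and 3 (adjusted p = 0.0694 to 0.0825). Quadriceps libraries had it at 233, 192 and 212 CPM in sham and 195, 227, 157, 227 and 351 CPM at day 1. The day 3 libraries had 284, 177, 152, 171 and 139 CPM and the day 7 libraries 179, 143, 134, 197 and 142 CPM. These groups overlapped sham at every day, with log2 fold changes of 0.36 ± 0.28 (adjusted p = 0.410), -0.13 ± 0.27 (adjusted p = 0.705) and -0.50 ± 0.27 (adjusted p = 0.492). The liver minus quadriceps difference in response was -1.02 ± 0.31 at day 1 (adjusted p = 0.0335). That difference was not called without liver sham replicates 1, 2 and 3, liver day 1 replicate 5, quadriceps sham replicates 1, 2 and 3 and quadriceps day 1 replicates 4 and 5 (adjusted p = 0.0508 to 0.0792). At days 3 and 7 the differences were -0.72 ± 0.31 (adjusted p = 0.0649) and -0.01 ± 0.31 (adjusted p = 0.989).

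Hsd11b1, which regenerates active corticosterone from its inert 11-keto form, fell in liver and rose in quadriceps at day 3. Liver levels were 299, 374 and 293 CPM in sham and 97.5, 228, 99.3, 286 and 294 CPM at day 1. Levels of 63.5, 31.4, 45.7, 35.1 and 28.7 CPM followed at day 3 and 89.5, 132, 114, 139 and 136 CPM at day 7. At day 1 the libraries split, with replicates 1 and 3 near 98 CPM and replicates 4 and 5 at the sham level, while at days 3 and 7 all 5 lay below sham. The change at day 1 was -0.52 ± 0.38 (adjusted p = 0.321), at day 3 -3.12 ± 0.38 (adjusted p = 9.94e-05), and at day 7 -1.59 ± 0.38 (adjusted p = 0.00989). Between days 1 and 3 it fell by 2.60 ± 0.35 (adjusted p = 0.000457), and between days 3 and 7 it rose by 1.53 ± 0.34 (adjusted p = 0.0365), a call lost without any 1 of 11 libraries, namely sham replicates 1, 2 and 3, day 3 replicates 2, 3, 4 and 5 and day 7 replicates 1, 2, 4 and 5 (adjusted p = 0.0531 to 0.122). In quadriceps the gene was far lower, at 6.72, 9.24 and 23.1 CPM in sham and 5.53, 8.38, 9.67, 5.64 and 7.55 CPM at day 1. Values at day 3 were 41.3, 20.8, 25.9, 26.1 and 62.4 CPM and those at day 7 12.2, 5.47, 9.42, 43.8 and 15.7 CPM. Sham replicate 3, which also had the highest adipocyte and hepatocyte marker sums of the sham muscles, overlapped the lowest day 3 library. The day 3 rise was 1.43 ± 0.53 (adjusted p = 0.0361) and became 2.16 (adjusted p = 0.0133) without that sham library. It was not called without sham replicates 1 and 2 and day 3 replicates 1 and 5 (adjusted p = 0.0592 to 0.149). The day 1 and day 7 changes in quadriceps were -0.64 ± 0.51 (adjusted p = 0.427) and 0.26 ± 0.51 (adjusted p = 0.872). The difference in response, liver minus quadriceps, was -4.56 ± 0.70 at day 3 (adjusted p = 1.81e-05; -5.29, adjusted p = 1.76e-05 without quadriceps sham replicate 3), the largest tissue difference among the 10 genes. The differences at days 1 and 7 were 0.12 ± 0.66 (adjusted p = 0.925) and -1.87 ± 0.67 (adjusted p = 0.0785). Liver reads could make up an estimated 6.81 to 11.0% of quadriceps Hsd11b1 in sham and 3.67 to 8.30% at day 1. The estimates were 0.0136 to 0.470% at day 3 and 0.339 to 2.32% at day 7. Adipocytes also express Hsd11b1, and their part in the quadriceps levels was not tested.

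Fkbp5 encodes a co-chaperone that lowers the receptor's affinity for hormone and is itself induced by it, a feedback loop. Liver levels were 42.0, 29.9 and 24.4 CPM in sham and 46.9, 150.1, 172, 72.9 and 42.0 CPM at day 1. Day 3 libraries stood at 100.1, 116, 147, 139 and 153 CPM and day 7 libraries at 40.2, 134, 175, 29.1 and 101.55 CPM. Day 3 libraries all exceeded sham by a wide margin, day 1 libraries only just (42.04 CPM against 41.98), and at day 7 replicates 1 and 4 were in the sham range. Liver Fkbp5 rose by 1.70 ± 0.55 at day 1 (adjusted p = 0.0310) and 1.91 ± 0.56 at day 3 (adjusted p = 0.0172), and its day 7 value was 1.37 ± 0.54 (adjusted p = 0.0847). The day 1 call did not hold without sham replicates 1, 2 and 3 and day 1 replicates 2 and 3 (adjusted p = 0.0576 to 0.115), nor the day 3 call without sham replicates 2 and 3 (adjusted p = 0.0668 to 0.0836). In muscle its level was 20.5, 19.5 and 20.3 CPM in sham and 221, 278, 324, 225 and 126 CPM at day 1. The day 3 libraries had 306, 386, 360.2, 346 and 346 CPM and the day 7 libraries 22.2, 152, 281, 42.1 and 147 CPM. All 15 PHx muscles were above all 3 sham muscles, although day 7 replicate 1 was above by less than 2 CPM. The rises were 3.75 ± 0.66 at day 1 (adjusted p = 0.0280) and 4.19 ± 0.68 at day 3 (adjusted p = 0.000432). At day 1 the call was lost without sham replicates 1, 2 and 3 and day 1 replicate 2 (adjusted p = 0.0549 to 0.177). The day 7 value was 2.68 ± 0.62 (adjusted p = 0.109), which was not called, while in the authors' deposited table it is 2.68 with an FDR of 0.00451. From day 3 to day 7 it fell by 1.51 ± 0.49 (adjusted p = 0.0235), and its log2 fold change was -2.12 (adjusted p = 0.00159) without day 7 replicate 3. This fall was not called without day 3 replicate 2 and day 7 replicate 4 (adjusted p = 0.0528 to 0.0536). The liver minus quadriceps difference was -2.28 ± 0.80 at day 3 (adjusted p = 0.0223), a call lost without liver sham replicate 1 (adjusted p = 0.0578), and was -2.04 ± 0.80 (adjusted p = 0.0908) at day 1 and -1.32 ± 0.79 (adjusted p = 0.314) at day 7.

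Tsc22d3 (GILZ), a glucocorticoid-induced repressor of inflammatory signalling, rose in quadriceps at day 3 and was not called in liver. Its liver levels were 40.7, 41.2 and 37.8 CPM in sham and 39.8, 28.9, 36.9, 13.3 and 10.9 CPM at day 1. Levels of 25.6, 23.0, 44.0, 33.6 and 44.3 CPM followed at day 3 and 29.2, 49.99, 25.99, 35.5 and 49.8 CPM at day 7. Each liver group overlapped sham, and day 1 replicates 4 and 5 were the lowest libraries. The liver changes were -0.56 ± 0.35 (adjusted p = 0.239), -0.35 ± 0.35 (adjusted p = 0.488) and -0.26 ± 0.35 (adjusted p = 0.650) at days 1, 3 and 7. Quadriceps levels were 140.4, 132 and 106 CPM in sham and 159, 336, 258, 252 and 339 CPM at day 1. Values at day 3 were 366, 433, 322, 529.8 and 268 CPM and those at day 7 88.6, 126, 241, 111 and 144 CPM. Muscles of days 1 and 3 were all above sham, and those of day 7 straddled it. The day 3 rise was 1.69 ± 0.39 (adjusted p = 0.00249), the day 1 value 1.33 ± 0.38 (adjusted p = 0.0506) just missed the threshold and the day 7 value was 0.14 ± 0.36 (adjusted p = 0.909). DESeq2 and the authors' deposited table call the day 1 value. Liver responses differed from those of quadriceps by -1.89 ± 0.53 at day 1 (adjusted p = 0.0194, and 0.0620 without quadriceps sham replicate 3) and -2.04 ± 0.53 at day 3 (adjusted p = 0.00290), and the day 7 difference was -0.41 ± 0.52 (adjusted p = 0.674). Quadriceps Tsc22d3 fell by 1.55 ± 0.32 from day 3 to day 7 (adjusted p = 0.00249).

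Ddit4 (REDD1), which restrains the growth kinase complex mTORC1, was almost silent in both sham tissues and rose in both. In liver it was at 2.13, 1.44 and 1.26 CPM in sham and 4.74, 26.5, 44.3, 20.7 and 18.3 CPM at day 1. Day 3 libraries stood at 13.6, 16.97, 12.8, 21.2 and 12.4 CPM and day 7 libraries at 6.32, 13.3, 8.84, 2.35 and 13.5 CPM. No PHx liver reached down to sham, although day 7 replicate 4 was only just above it. The rises were 3.98 ± 0.67 (adjusted p = 0.00140), 3.12 ± 0.64 (adjusted p = 0.00247) and 2.26 ± 0.62 (adjusted p = 0.0197) at days 1, 3 and 7. Leaving out any 1 of sham replicates 1, 2 and 3 ended the day 7 call (adjusted p = 0.0592 to 0.0904). The quadriceps levels were 2.90, 2.66 and 2.36 CPM in sham and 61.7, 196, 243, 113 and 181 CPM at day 1. The day 3 libraries had 189, 278, 127, 249 and 84.5 CPM and the day 7 libraries 5.17, 27.7, 214, 7.499 and 14.6 CPM. The lowest day 1 muscle, at 61.7 CPM, stood far above the highest sham muscle, at 2.90 CPM, and at day 7 a single library, replicate 3, was still at the day 3 level. The rises were 6.14 ± 1.27 (adjusted p = 0.0287) at day 1 and 6.24 ± 1.28 (adjusted p = 0.00127) at day 3, the largest fold changes among the 10 genes. At day 1 the call was lost without sham replicates 1, 2 and 3 and day 1 replicates 2 and 5 (adjusted p = 0.0508 to 0.177). The day 7 value, 4.43 ± 1.17 (adjusted p = 0.167), was not called, while the authors' deposited table gives 4.44 with an FDR of 0.00171. From day 3 to day 7 the change was -1.81 ± 0.82 (adjusted p = 0.0901), and it was called without day 7 replicate 3 (adjusted p = 0.000222). At day 3 the liver minus quadriceps difference was -3.13 ± 1.22 (adjusted p = 0.0387). This difference lost its call without any 1 of 11 libraries, which were liver sham replicates 1, 2 and 3, liver day 3 replicates 1, 3 and 5, quadriceps sham replicates 1, 2 and 3 and quadriceps day 3 replicates 2 and 4 (adjusted p = 0.0502 to 0.0883). The differences at days 1 and 7 were -2.16 ± 1.20 (adjusted p = 0.247) and -2.18 ± 1.21 (adjusted p = 0.271). Muscle reads could make up an estimated 21.4% of the Ddit4 count in liver day 1 replicate 1, the library with the lowest day 1 value.

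Klf9 encodes a Krüppel-like transcription factor that hormone receptors induce directly. Liver levels were 161, 154 and 133 CPM in sham and 149, 152, 183, 174 and 152 CPM at day 1. Levels of 167, 174, 127, 116 and 134 CPM followed at day 3 and 61.8, 119, 138, 69.4 and 76.3 CPM at day 7. The day 1 livers overlapped sham, the day 3 livers covered its range and 4 of the 5 day 7 livers lay below it. The values at days 1 and 3 were 0.24 ± 0.25 (adjusted p = 0.490) and -0.19 ± 0.24 (adjusted p = 0.604), and at day 7 the gene fell by 0.89 ± 0.24 (adjusted p = 0.0182), a call lost without any 1 of sham replicates 1, 2 and 3 (adjusted p = 0.0548 to 0.0730). In quadriceps it was at 219, 166 and 167 CPM in sham and 378, 712, 354, 456 and 437 CPM at day 1. Values at day 3 were 637, 492, 296, 366 and 299.6 CPM and those at day 7 140.2, 279, 402, 138 and 212 CPM. All day 1 and day 3 muscles were above sham, whereas day 7 replicates 1 and 4 were below it. It rose by 1.58 ± 0.42 at day 1 (adjusted p = 0.0405) and 1.27 ± 0.41 at day 3 (adjusted p = 0.0176), and the day 7 value was 0.33 ± 0.39 (adjusted p = 0.772). The day 1 call was lost without sham replicates 1, 2 and 3, day 1 replicates 2, 4 and 5 and day 3 replicates 3 and 4 (adjusted p = 0.0513 to 0.193) and the day 3 call without sham replicates 2 and 3 (adjusted p = 0.0597 to 0.0618). Liver and quadriceps responses differed by -1.46 ± 0.48 (adjusted p = 0.0151) at day 3, and by -1.33 ± 0.48 (adjusted p = 0.0663) and -1.23 ± 0.48 (adjusted p = 0.106) at days 1 and 7. From day 3 to day 7 quadriceps Klf9 fell by 0.94 ± 0.34 (adjusted p = 0.0389), which was not called without day 3 replicates 1, 2 and 4 and day 7 replicates 1, 2, 4 and 5 (adjusted p = 0.0529 to 0.102).

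Klf15, a factor that drives amino acid breakdown in muscle and gluconeogenesis in liver, went in opposite directions in liver and quadriceps. Liver libraries had it at 112, 122 and 111 CPM in sham and 71.6, 27.9, 51.4, 17.1 and 16.3 CPM at day 1. Day 3 libraries stood at 59.7, 60.2, 56.0, 44.8 and 65.2 CPM and day 7 libraries at 56.6, 80.8, 30.7, 94.9 and 60.01 CPM. All 15 PHx livers lay below sham, and day 1 replicates 4 and 5 were the lowest. It fell by 1.59 ± 0.38 at day 1 (adjusted p = 0.00789) and 1.13 ± 0.38 at day 3 (adjusted p = 0.0359), and the day 7 value was -1.01 ± 0.39 (adjusted p = 0.0729). The day 3 call was lost without sham replicates 1, 2 and 3 and day 3 replicates 1, 2, 3 and 4 (adjusted p = 0.0535 to 0.0822). Quadriceps libraries had it at 30.3, 21.1 and 25.6 CPM in sham and 45.0, 153, 101.89, 118 and 82.9 CPM at day 1. The day 3 libraries had 261, 224, 92.8, 169.9 and 85.2 CPM and the day 7 libraries 20.9, 62.6, 118, 20.8 and 64.0 CPM. Day 1 and day 3 muscles were all above sham, while day 7 replicates 1 and 4 were just below the lowest sham muscle. It rose by 2.21 ± 0.62 at day 1 (adjusted p = 0.0490) and 2.80 ± 0.64 at day 3 (adjusted p = 0.00255). The day 1 call stood close to the threshold and was lost without any 1 of 12 libraries, which were sham replicates 1, 2 and 3, day 1 replicates 2, 3, 4 and 5, day 3 replicates 2, 3 and 4 and day 7 replicates 2 and 5 (adjusted p = 0.0549 to 0.197), and also with no filter on low counts. The day 7 value in quadriceps was 1.16 ± 0.59 (adjusted p = 0.468). The liver minus quadriceps difference in Klf15 was -3.80 ± 0.74 at day 1 (adjusted p = 0.00208) and -3.94 ± 0.75 at day 3 (adjusted p = 0.000168), and both differences were called whichever single library was left out. At day 7 the difference was -2.18 ± 0.73 (adjusted p = 0.0600). From day 3 to day 7 quadriceps Klf15 fell by 1.64 ± 0.50 (adjusted p = 0.0184, and 0.0506 without day 3 replicate 2).

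Zbtb16 (PLZF), a zinc finger repressor strongly induced by steroids in many human cells, rose in quadriceps and was not called in liver. Its liver levels were 31.4, 33.6 and 52.7 CPM in sham and 57.0, 76.4, 111, 69.2 and 55.8 CPM at day 1. Levels of 54.2, 49.5, 77.3, 54.2 and 65.8 CPM followed at day 3 and 19.6, 70.3, 111, 10.7 and 53.0 CPM at day 7. Day 1 livers were all above sham, and day 7 livers ran from below the lowest sham library to above the highest. The liver values were 1.03 ± 0.52 (adjusted p = 0.150), 0.49 ± 0.51 (adjusted p = 0.507) and 0.20 ± 0.51 (adjusted p = 0.818) at days 1, 3 and 7. In muscle its level was 103.41, 114 and 91.1 CPM in sham and 278, 509, 512, 450.0 and 384 CPM at day 1. Values at day 3 were 765, 694, 473, 645 and 429 CPM and those at day 7 90.6, 288, 511, 114 and 146 CPM. No day 1 or day 3 muscle overlapped sham. The rises were 2.27 ± 0.53 (adjusted p = 0.0338) and 2.62 ± 0.54 (adjusted p = 0.00128), and the day 7 value was 1.15 ± 0.50 (adjusted p = 0.376). Its day 1 call was lost without sham replicates 1, 2 and 3 and day 1 replicates 2, 4 and 5 (adjusted p = 0.0516 to 0.179). It fell by 1.47 ± 0.42 from day 3 to day 7 (adjusted p = 0.0134), and the change was -2.11 (adjusted p = 0.000355) without day 7 replicate 3. The liver minus quadriceps difference was -2.14 ± 0.73 at day 3 (adjusted p = 0.0194, and 0.0620 without liver sham replicate 3), with -1.24 ± 0.73 (adjusted p = 0.271) at day 1 and -0.96 ± 0.72 (adjusted p = 0.432) at day 7.

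Sgk1, a kinase that stimulates sodium transport and cell survival and 1 of whose several windows carries the exact palindrome, rose in both tissues. In liver it was at 30.3, 32.8 and 24.1 CPM in sham and 91.4, 210.0, 90.7, 507 and 379.8 CPM at day 1. Day 3 libraries stood at 485, 319, 74.4, 128 and 79.4 CPM and day 7 libraries at 61.1, 70.3, 98.01, 49.4 and 49.4 CPM. All PHx livers exceeded sham, but libraries of a day differed widely, from 90.7 to 507 CPM at day 1. It rose by 3.34 ± 0.73 at day 1 (adjusted p = 0.00507) and 2.75 ± 0.71 at day 3 (adjusted p = 0.00875), and the day 7 value was 0.96 ± 0.65 (adjusted p = 0.317). In quadriceps it started higher, at 336, 352 and 199 CPM in sham and 409.8, 1484, 589, 1385 and 1036 CPM at day 1. The day 3 libraries had 767, 1001, 646, 1094 and 493 CPM and the day 7 libraries 332, 560.1, 374, 325 and 277 CPM. Day 1 and day 3 muscles were above sham and day 7 muscles overlapped it. The rises were 1.99 ± 0.47 (adjusted p = 0.0340) and 1.53 ± 0.45 (adjusted p = 0.0114), with 0.27 ± 0.43 (adjusted p = 0.838) at day 7. The day 1 call was lost without sham replicates 1, 2 and 3 and day 1 replicates 2, 4 and 5 (adjusted p = 0.0536 to 0.182), and the day 3 call without sham replicate 3 (adjusted p = 0.0604). Liver minus quadriceps differences were 1.35 ± 0.80 (adjusted p = 0.275), 1.21 ± 0.79 (adjusted p = 0.224) and 0.67 ± 0.79 (adjusted p = 0.642), none of them past the threshold. From day 3 to day 7 quadriceps Sgk1 fell by 1.26 ± 0.38 (adjusted p = 0.0162, and 0.0511 without day 3 replicate 2).

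Errfi1 (MIG6), an inhibitor of the EGF receptor, rose in quadriceps, where it started low, and was not called against sham in liver, where it was high. Liver libraries had it at 1824, 1388 and 1684 CPM in sham and 2048, 2303, 1833, 3103 and 2878 CPM at day 1. Levels of 1526, 1619, 1487, 1415 and 1552 CPM followed at day 3 and 904, 1422, 1980.1, 704 and 1042 CPM at day 7. Day 1 livers were all above sham, the closest at 1833 CPM against 1824, day 3 livers were within the sham range and 3 of the 5 day 7 livers were below it. The liver values against sham were 0.72 ± 0.30 (adjusted p = 0.0829), -0.23 ± 0.29 (adjusted p = 0.586) and -0.65 ± 0.29 (adjusted p = 0.117), and between days 1 and 3 it fell by 0.95 ± 0.26 (adjusted p = 0.0141). The quadriceps levels were 36.9, 35.97 and 35.2 CPM in sham and 133, 270.0, 354, 187 and 433 CPM at day 1. Values at day 3 were 399, 523, 215, 364 and 179.6 CPM and those at day 7 41.4, 94.4, 349.9, 43.1 and 123 CPM. The 3 sham muscles differed by under 2 CPM and all 15 PHx muscles were above them. It rose by 3.17 ± 0.73 at day 1 (adjusted p = 0.0329) and 3.32 ± 0.74 at day 3 (adjusted p = 0.00203), and the day 7 value was 1.87 ± 0.68 (adjusted p = 0.282). Its day 1 call was lost without sham replicates 1, 2 and 3 and day 1 replicates 2, 4 and 5 (adjusted p = 0.0537 to 0.177). From day 3 to day 7 it fell by 1.45 ± 0.55 (adjusted p = 0.0493), and the change was -2.37 (adjusted p = 0.000977) without day 7 replicate 3. This call was lost without sham replicates 1, 2 and 3, day 1 replicates 2, 3 and 4, day 3 replicates 1, 2 and 4 and day 7 replicates 1, 2, 4 and 5 (adjusted p = 0.0561 to 0.135). Liver minus quadriceps differences were -2.44 ± 0.74 (adjusted p = 0.0306), -3.56 ± 0.76 (adjusted p = 0.000524) and -2.54 ± 0.75 (adjusted p = 0.0355) at days 1, 3 and 7. The day 1 difference was not called without liver sham replicates 1 and 3, quadriceps sham replicates 1, 2 and 3 and quadriceps day 1 replicate 5 (adjusted p = 0.0534 to 0.0754), nor the day 7 difference without liver sham replicates 1, 2 and 3, liver day 7 replicates 1 and 5, quadriceps sham replicates 1, 2 and 3 and quadriceps day 7 replicate 3 (adjusted p = 0.0517 to 0.0980), and the latter was -1.62 without quadriceps day 7 replicate 3. At the hepatocyte marker levels of these muscles, liver reads could make up an estimated 35.2% of Errfi1 in sham replicate 3, 27.2% in day 7 replicate 4 and 9.74% in day 7 replicate 1. The highest estimate at day 3 was 0.887%.

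On a scale of mean CPM per kilobase of gene length, which allows levels of different genes to be set side by side, sham liver ran from Errfi1 at 541 and Hsd11b1 at 223 through Klf15 at 50.1, Klf9 at 45.8 and Nr3c1 at 27.0 to Ddit4 at 0.955. Sham quadriceps ran from Sgk1 at 71.1, Klf9 at 56.3 and Tsc22d3 at 47.6 to Fkbp5 at 5.17 and Ddit4 at 1.57. At day 3 in quadriceps Fkbp5 was at 89.9 and Ddit4 at 110.1, above Nr3c1 at 29.2. Nr3c1 itself was at 171 ± 5.04 CPM in sham liver and 213 ± 20.6 CPM in sham quadriceps (mean ± SD, n = 3 each).

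Tested directly, the liver response was below the quadriceps response for 4 of the 10 genes at day 1 (Nr3c1, Tsc22d3, Klf15 and Errfi1; 4.62% of 12780 genes were below and 6.56% above), for 8 at day 3 (the same test gave 21.6% below and 19.9% above over all genes) and for Errfi1 alone at day 7 (2.64% and 4.44%). The 8 genes at day 3 were all but Nr3c1 and Sgk1. The day 1 count fell to 2 without liver sham replicate 1 or 3, quadriceps sham replicate 1 or 2 or quadriceps day 1 replicate 5, and to 1 without quadriceps sham replicate 3. The day 3 count stayed between 6 and 9 with any 1 library left out. The Errfi1 call at day 7 was lost without any 1 of 9 libraries, as given above.

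**Figure D3:**
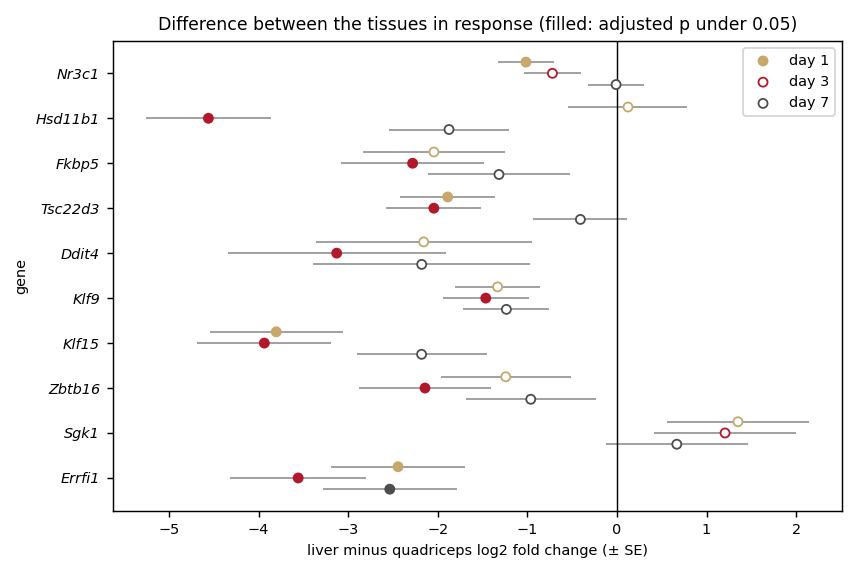
The horizontal axis is the log2 fold change against sham in liver minus that in quadriceps, with 1 row per gene and 1 point per day, bars for the SE and filled points for an adjusted p under 0.05. Filled points all lie left of 0, the farthest being Hsd11b1 at day 3 (-4.56) and Klf15 at day 3 (-3.94), and the 3 Sgk1 points lie to the right, unfilled.

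Between days, 8 of the 10 genes fell in quadriceps from day 3 to day 7, all but Nr3c1 and Ddit4, when 19.5% of all genes fell and 17.0% rose. That count was 5 without day 3 replicate 1 or 4 or day 7 replicate 1, 2, 4 or 5, and 2 without day 3 replicate 2. From day 1 to day 3 only Hsd11b1 changed in quadriceps, rising by 2.06 ± 0.46 (adjusted p = 0.00422), when 13.6% of all genes rose and 12.6% fell. In liver, Hsd11b1 and Errfi1 fell from day 1 to day 3 (13.6% of all genes fell and 11.6% rose) and Hsd11b1 rose from day 3 to day 7 (0.612% rose and 0.648% fell).

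At day 7 the libraries of a tissue spread widely. For 4 of the 10 genes, Fkbp5, Zbtb16, Klf9 and Errfi1, replicate 3 was highest and replicates 1 and 4 were the lowest pair in both tissues. Which of that pair was the lowest differed between the tissues for each of the 4. Ddit4 had the same lowest pair in both, but its highest liver was replicate 5, and the other genes did not share this pattern. Fkbp5 in liver was at 40.2 and 29.1 CPM in replicates 1 and 4, within the sham range, and at 134, 175 and 101.55 CPM in replicates 2, 3 and 5. In quadriceps replicates 1 and 4 were at 22.2 and 42.1 CPM and replicates 2, 3 and 5 at 152, 281 and 147 CPM. Zbtb16 was likewise lowest in replicates 4 and 1 and highest in replicate 3 in liver (10.7, 19.6 and 111 CPM), and replicates 1 and 4 were the lowest and replicate 3 the highest in quadriceps (90.6, 114 and 511 CPM). Klf9 and Errfi1 also had replicates 1 and 4 as the lowest pair and replicate 3 highest in both tissues. Klf15 ran the other way in liver, lowest in replicate 3 (30.7 CPM) and highest in replicate 4 (94.9 CPM), while in quadriceps replicate 3 was its highest (118 CPM). Nr3c1 and Tsc22d3 were also lowest in replicate 3 in liver (114 and 25.99 CPM). Over the 10 genes, replicate 3 was the highest day 7 muscle for 7 and the lowest for 1, and the highest day 7 liver for 5 and the lowest for 3. Quadriceps replicate 4 also had the highest day 7 sums of adipocyte markers (2288 CPM) and hepatocyte markers (468.5 CPM), and replicate 1 the next highest (604 and 161 CPM), while in liver replicates 1 and 4 the muscle fibre markers summed to 27.9 and 10.4 CPM. The part of these traces in the day 7 spread was not tested. Among day 1 muscles replicate 1 was the lowest for 7 of the 10 genes, and among day 3 muscles replicate 5 was the lowest for 7.

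**Figure D4:**
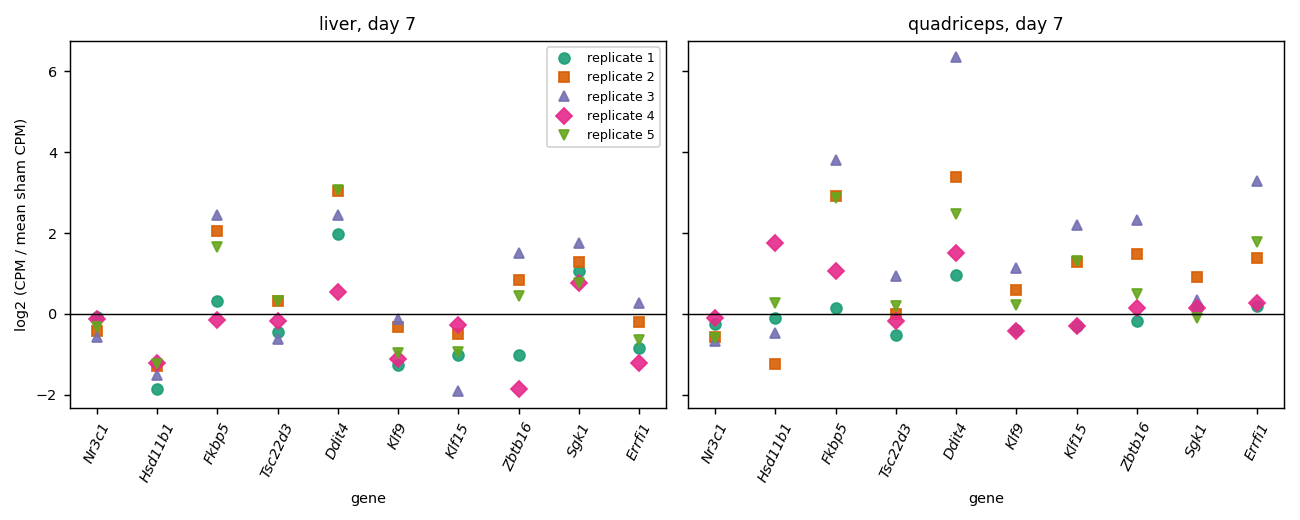
Points give the log2 ratio of a day 7 library's CPM to the mean sham CPM of the same tissue for each of the 10 genes, in liver (left) and quadriceps (right), with colour and shape for the replicate number. For Fkbp5, Zbtb16 and Errfi1 the triangles of replicate 3 are at the top of both panels and the circles and diamonds of replicates 1 and 4 are the lowest pair in both, while Klf15 in liver has replicate 3 lowest.

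Across the 18 quadriceps libraries the other induced genes followed Fkbp5 closely in log2 CPM (Pearson's r, a description over libraries that share tissue, sham and time), with r = 0.94 for Ddit4, 0.93 for Zbtb16, 0.90 for Errfi1, 0.89 for Klf15, 0.80 for Tsc22d3, 0.80 for Klf9 and 0.66 for Sgk1. Hsd11b1 and Nr3c1 did not, at 0.14 and -0.24. Over the 18 livers only Ddit4 (0.80) and Zbtb16 (0.72) exceeded 0.5, Sgk1 was at 0.38, and Klf15, Nr3c1 and Hsd11b1 were at -0.37, -0.51 and -0.59. Among other genes (5 CPM or more on average, without symbols of the Gm-number or Rik kind), those most like Fkbp5 in quadriceps were Tacc2 (0.97), Arrdc2 (0.97), Erbb2ip (0.97), Foxo3 (0.96) and Trim63 (0.95). Foxo3 is a transcription factor of the atrophy programme and Trim63 (MuRF1) is a ubiquitin ligase of muscle wasting. Arrdc2, Foxo3 and Trim63 are also in the lists of glucocorticoid-responsive genes below. Those most like Fkbp5 in liver were St8sia3 (0.93), Serinc3 (0.91), Pole4 (0.90), Arg1 (0.89) and Rbm3 (0.88), where Arg1 is arginase of the urea cycle and Rbm3 a cold-inducible RNA-binding protein.

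Of 24 listed genes around the receptor (its chaperones, cofactors and steroid enzymes), 23 were in the table. In liver 2 of 23 rose and 5 fell at day 1, 5 fell at day 3 and 3 fell at day 7. Over all liver genes 16.7% rose and 11.0% fell at day 1, and 12.8% and 6.74% fell at days 3 and 7. The list's medians were -0.20, -0.35 and -0.20 on the log2 scale. Nr3c2, the mineralocorticoid receptor that binds the same hormone, fell in liver, with changes of -1.64 ± 0.26, -1.63 ± 0.26 and -0.83 ± 0.26 at days 1, 3 and 7, and in quadriceps, with -1.46 ± 0.28 at day 3 (adjusted p = 0.00114, 0.000515, 0.0358 and 0.000948). The chaperone gene Hsp90aa1 rose by 1.53 ± 0.32 and the corepressor gene Nrip1 by 1.97 ± 0.60 in liver at day 1, when Akr1d1, which inactivates steroids by 5-beta reduction, fell by 1.41 ± 0.45 and the coactivator gene Ncoa2 fell by 0.39 ± 0.13. At day 3 liver Ppid, a co-chaperone, fell by 0.82 ± 0.20 and the coactivator Ncoa3 fell by 0.62 ± 0.16, and at day 7 the coactivators Crebbp and Ncoa1 fell, with -0.39 ± 0.12 and -0.37 ± 0.12. Serpina6, the corticosteroid-binding globulin of plasma, fell by 4.68 ± 1.501 in liver at day 3 (adjusted p = 0.0274) and is named after its value was seen. In quadriceps 7 of 21 tested genes rose and 3 fell at day 3 (median 0.11), when 24.8% of all genes rose and 22.6% fell, and edgeR called 0 at day 1 and 0 at day 7 (6 and 1 at an unadjusted p under 0.05). The day 3 rises included the chaperones Ptges3 (p23, 1.34 ± 0.27) and Hsp90ab1 (1.18 ± 0.28) and Crebbp (1.02 ± 0.23), and the falls Fkbp4 (-0.88 ± 0.17), the co-chaperone that opposes Fkbp5, and Ncoa1 (-0.42 ± 0.17). Adjusted p of these named genes ran from 0.000515 to 0.0493.

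Another 25 listed genes are induced by glucocorticoids in many tissues. In quadriceps 14 of 25 rose at day 1 and 20 at day 3, with medians of 2.16 and 2.58, and 11 of 25 fell from day 3 to day 7, when the median against sham was 1.21 and edgeR called 0 (16 at an unadjusted p under 0.05). Over all quadriceps genes 3.04% and 24.8% rose at days 1 and 3, and 19.5% fell from day 3 to day 7. In liver 11 rose and 1 fell at day 1 (all genes 16.7% and 11.0%), 7 rose and 3 fell at day 3 (15.8% and 12.8%) and 5 rose and 2 fell at day 7 (12.4% and 6.74%), with medians of 1.48, 0.19 and -0.22. One library stood apart in the summed level. In liver day 1 replicate 1 the 25 genes summed to 2363 CPM, within the 2274 to 2589 CPM of sham. The other day 1 livers were at 11660.0 to 18647 CPM. Mt1 and Mt2 set much of this sum, with liver day 1 means of 5347 and 2976 CPM beside 12286 for the list. Even the lowest day 1 liver exceeded the highest sham liver for Mt1 (349 against 127 CPM) and Mt2 (195 against 32.3 CPM). The sum therefore does not place each of the 25 genes at its sham level in replicate 1. The metal-binding metallothionein Mt2 rose by 6.81 ± 1.23, 5.47 ± 1.15 and 4.01 ± 1.06 in liver at days 1, 3 and 7 and by 5.94 ± 0.91 and 7.25 ± 0.97 in quadriceps at days 1 and 3. Mt1 rose by 4.95 ± 0.76 and 6.43 ± 0.82 in quadriceps. The cell cycle inhibitor Cdkn1a (p21), which the p53 pathway also induces, rose by 6.99 ± 0.92, 4.72 ± 0.82 and 4.85 ± 0.83 in liver and by 4.97 ± 0.91 in quadriceps at day 1. Its mean was 2.13 ± 0.827 CPM in sham liver (± SD, n = 3) and 238 ± 124 at day 1 (n = 5). Ampd3, AMP deaminase, rose by 4.97 ± 0.82 in quadriceps at day 3, and Cebpd (3.23 ± 0.54 at day 1), Hif3a (2.73 ± 0.56 at day 3) and Anxa1 (1.74 ± 0.42 at day 7) rose in liver. Foxo3 fell in liver, with -1.41 ± 0.26 at day 1 and -0.99 ± 0.26 at day 3, and rose in quadriceps (1.93 ± 0.43 at day 3). Glutamine synthetase Glul fell in liver, with -2.89 ± 0.53 and -1.90 ± 0.52 at days 3 and 7, as did Pik3r1 (-0.78 ± 0.28 at day 3) and the lipid phosphatase Lpin1 (-1.97 ± 0.59 at day 7). Adjusted p of these named values ran from 0.000232 to 0.0476. Several of these genes also answer to cytokines, and neutrophil markers were higher after PHx in both tissues, as given above, a part that was not tested.

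Of 11 glucocorticoid-responsive genes of liver metabolism, 2 rose at day 1 and 4 at day 3, when 16.7% and 15.8% of all liver genes rose. At day 7 edgeR called 0 (2 at an unadjusted p under 0.05), with medians of 0.28, 0.50 and 0.19. Tat, tyrosine aminotransferase, rose by 1.81 ± 0.37 and 1.33 ± 0.36 at days 1 and 3 (adjusted p = 0.00365 and 0.0124), Igfbp1, which binds insulin-like growth factors, by 4.22 ± 1.03 and 3.44 ± 0.98 (adjusted p = 0.00805 and 0.0151), and the coactivator Ppargc1a by 1.92 ± 0.61 at day 3 (adjusted p = 0.0262). Of 11 genes of muscle protein breakdown and growth restraint, 2 rose in quadriceps at day 1 and 7 at day 3 (medians 1.15 and 1.93), when 3.04% and 24.8% of all genes rose. Between days 3 and 7, 6 fell, beside 19.5% of all genes, with 0 called against sham at day 7 (4 at an unadjusted p under 0.05). The ubiquitin ligase Trim63 was at 83.2 ± 10.1 CPM in sham muscle (mean ± SD, n = 3), 1461 ± 486 at day 1 and 3073 ± 1491 at day 3 (n = 5 each), rises of 4.34 ± 1.03 and 5.31 ± 1.09 (adjusted p = 0.0352 and 0.00128). Cblb, another ubiquitin ligase, rose by 1.87 ± 0.46 at day 1, and the lysosomal protease Ctsl and the translation repressor Eif4ebp1 by 3.04 ± 0.50 and 3.56 ± 0.59 at day 3 (adjusted p = 0.0372, 0.000447 and 0.000479).

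Clock genes, which glucocorticoids reset and which mark the hour of sampling, were also called, and the hour at which each group was sampled is not given in the labels. In liver 5 of 16 rose and 5 fell at day 1, 2 rose and 4 fell at day 3 and 2 rose and 3 fell at day 7, beside 16.7% and 11.0%, 15.8% and 12.8%, and 12.4% and 6.74% of all genes (medians -0.13, -0.55 and -0.52). In quadriceps 4 rose and 1 fell at day 1 and 6 rose and 4 fell at day 3, beside 3.04% and 2.26%, and 24.8% and 22.6% (medians 0.22 and 0.36), while 0 were called at day 7 (3 at an unadjusted p under 0.05). Arntl (BMAL1), of the positive limb, rose by 3.67 ± 0.66, 2.51 ± 0.62 and 2.27 ± 0.62 in liver at days 1, 3 and 7 and by 2.62 ± 0.69 and 3.05 ± 0.70 in quadriceps at days 1 and 3. Its partner genes rose too, Npas2 by 4.02 ± 1.36 in liver at day 7 and 2.44 ± 0.64 in quadriceps at day 1, and Clock by 1.07 ± 0.24 in quadriceps at day 3. Npas2 in liver at day 7 was uneven, from 0.576 to 27.9 CPM around a mean of 6.64. Its lowest day 7 liver lay within the sham range of 0.140 to 0.654 CPM. In the negative limb Cry1 rose by 1.62 ± 0.33 and 1.08 ± 0.32 in liver, Cry2 by 2.79 ± 0.52 in quadriceps and the repressor Nfil3 by 2.49 ± 0.51 in liver and 3.43 ± 0.69 in quadriceps at day 1. Tef, Hlf and Per3 fell in liver at day 1, with Tef at -2.57 ± 0.44, Hlf at -1.66 ± 0.29 and Per3 at -3.40 ± 0.63. At day 3 liver Hlf, Nr1d1 and Bhlhe41 were at -1.31 ± 0.29, -2.61 ± 0.63 and -2.94 ± 0.72, and at day 7 they were at -1.19 ± 0.29, -1.99 ± 0.62 and -2.93 ± 0.72. In quadriceps Per3 was at -1.31 ± 0.32 at day 1 and -1.64 ± 0.32 at day 3, Dbp at -4.52 ± 0.71 and Bhlhe41 at -2.73 ± 0.52. Adjusted p of these ran from 0.000359 to 0.0453. Klf9 and Tsc22d3 are themselves rhythmic in many tissues, and the part of sampling hour in the members' changes cannot be told apart from that of PHx.

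**Figure D5:**
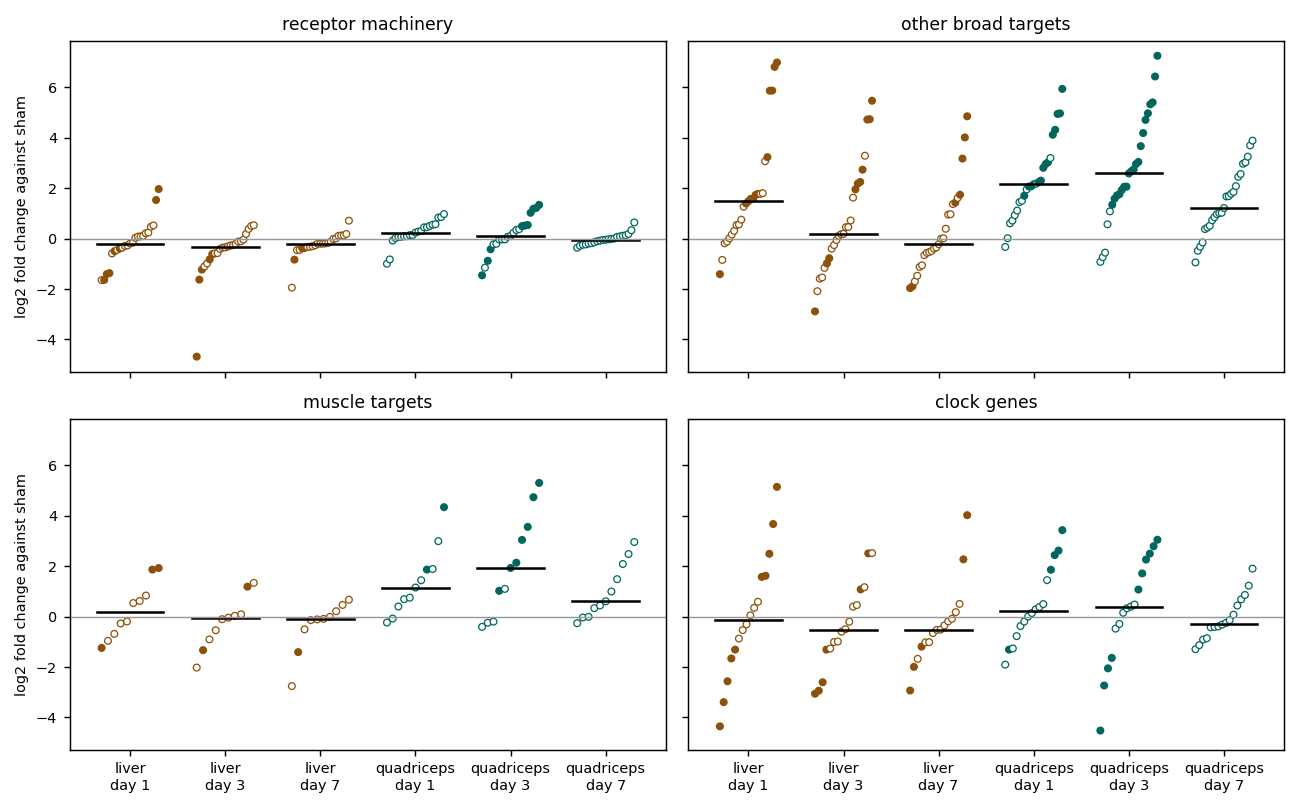
Each point is a gene of the list named above its panel, ordered by value within a comparison, with the log2 fold change against sham on the vertical axis, brown for liver and green for quadriceps, filled where the adjusted p was under 0.05 and a black line for the list's median. The other broad targets stand highest in quadriceps at day 3 (median 2.58). The medians of the receptor machinery lie between -0.35 at liver day 3 and 0.24 at quadriceps day 1.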

How the data were processed

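Total RNA from frozen liver and quadriceps was sequenced after clean-up and DNase treatment with the KAPA kit, per the labels' protocols. Per the submitters' processing notes, FastQC 0.11.5, STAR 2.7.10a, featureCounts, Subread 2.0.3 and edgeR 3.40.2 were used with mm10, and roles and settings are not given in the sources used here, nor is a strand setting. The deposited table gives raw read counts per gene for 36 libraries, gene lengths in bases, and the authors' log2 fold changes and FDR (adjusted p-values) for each day against sham. Another 36 per-sample columns stayed unused. Every gene of the table exceeded 0.5 CPM in at least 4 libraries. No 2 libraries of a group had equal counts in over 4.52% of genes, so all were kept as separate replicates. Nothing beyond the group sizes says that libraries are separate animals, so p-values measure the spread between these samples.

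Counts were tested as deposited in R 4.3.3 with edgeR 4.0.16 (filterByExpr, TMM scaling, robust quasi-likelihood fit, two-sided F-tests), 1 fit per tissue over its 18 libraries with 13879 liver and 13601 quadriceps genes. Tissue differences were tested as interaction terms over all 36 libraries, with the 12780 genes kept in both tissues. P-values were Benjamini-Hochberg adjusted over all genes of a comparison at 0.05. The SE is the fitted log2 coefficient divided by the square root of F. Alternatives were DESeq2 1.42.0, its size factors, no filter, only the compared groups, TMM over all libraries, a replicate block and each library left out in turn. The procedure was checked on simulated counts. Shares of a member's counts that reads of the other tissue could make up scale that tissue's highest level of the member in the same condition. The scale is the library's sum of that tissue's markers over their mean sum in all libraries of that tissue. Marker sums differ between conditions, so the shares are estimates and not upper bounds. Log2 CPM for Pearson's r used a pseudocount of 0.5.

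The 10 members and all gene lists were chosen with earlier results of these data known. Named genes are the members, up to 3 called genes per list, comparison and direction with the smallest p (liver and muscle targets in their own tissue only), and the 5 genes per tissue most like Fkbp5. Symbols of the Gm-number or Rik kind were left out of that last choice. Serpina6 was named outside this rule, after its value was seen. Promoter windows are RefSeq's for GRCm38.p6.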

Additional observations from a re-analysis of the deposited data

Results flagged for a closer look

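Of 60 combinations of a gene and a group of 5 libraries, 5 held a library far from the others by Dixon's gap test at the 95% level, where chance alone gives about 1 in 20. The 10 genes were read from the same libraries, so the 60 combinations are not independent. They were Nr3c1 in quadriceps at day 3 replicate 1 (284.008 CPM), Hsd11b1 in quadriceps at day 7 replicate 4 (43.834 CPM), Ddit4 and Errfi1 in quadriceps at day 7 replicate 3 (213.781 and 349.918 CPM) and Klf9 in quadriceps at day 1 replicate 2 (712.231 CPM), each the highest of its group. Quadriceps day 7 replicate 4 also had the highest adipocyte marker sum of its group, 2288 CPM.

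Responses that differed between the tissues by the interaction test are given as liver minus quadriceps log2 fold changes. At day 1 they were Nr3c1 at -1.01531, Errfi1 at -2.44291, Klf15 at -3.80224 and Tsc22d3 at -1.88838. At day 3 they were Hsd11b1 at -4.55919, Klf15 at -3.9351, Errfi1 at -3.55733, Ddit4 at -3.12777, Fkbp5 at -2.28043, Zbtb16 at -2.14207, Tsc22d3 at -2.04308 and Klf9 at -1.46381. At day 7 the single one was Errfi1 at -2.53505, which was -1.62 (adjusted p = 0.0980) without quadriceps day 7 replicate 3.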

How the results depend on the processing

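All 10 genes gave a value in 13 comparisons, 130 results of which 56 were called. With DESeq2 119 kept their side of the threshold and 11 more were called. Its size factors ended 1 call of 100, no filter ended 3, and TMM over all libraries changed none of 30. With only the compared groups 7 of 100 were lost and 2 gained. Over all leave-one-out fits, 2659 values kept their side, 164 lost a call, 28 gained one and 29 changed sign. No fold change that switched sign was called in either fit, and the cause was not tested.

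Counts of called members that moved by over 1.5 times with all libraries kept were as follows, beside quadriceps day 1 under the block, given below. Rises at liver day 7 (1) became 2 with DESeq2, 2 with only the compared groups and 0 with the replicate block. From liver day 3 to day 7 the 1 rise became 0 with the block, and DESeq2 called 2 falls where edgeR called 0. At quadriceps day 7 DESeq2 called 2 rises. From quadriceps day 3 to day 7 the 8 falls became 2 with only the compared groups. The tissue difference at day 7 (1) became 3 with DESeq2 and 2 with the block.

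The labels do not say what a replicate number marks, and not every pair of same-numbered libraries deviated together, so the numbers were not used as pairs. Deviations of same-numbered libraries correlated above 0.1 in 4 of 24 pairs within liver (-0.33 to 0.18), 3 of 24 within quadriceps (-0.36 to 0.30) and 10 of 18 across tissues (-0.07 to 0.35), where 10 of 18 libraries matched their own number best, a hint from the data and not the design. The replicate block cut the quadriceps day 1 rises from 7 to 4, ended 12 calls of 130 in all, added 4, and turned Hsd11b1 to -0.057671 at quadriceps day 7 and to -0.28025 for the tissue difference at day 1.

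With 1 library left out, the members' counts ran from 2 to 4 rises at liver day 1, 2 to 3 rises and 2 to 3 falls at liver day 3, 0 to 2 rises and 1 to 4 falls at liver day 7, 0 to 2 rises and 0 to 1 falls from liver day 3 to day 7, 0 to 8 rises at quadriceps day 1, 7 to 9 at day 3 and 0 to 1 at day 7. From day 1 to day 3 falls ran from 2 to 3 in liver and 0 to 1 in quadriceps, and from 2 to 8 from quadriceps day 3 to day 7. Tissue differences ran from 1 to 5, 6 to 9 and 0 to 2 at days 1, 3 and 7. Where signs changed, fold changes ran from -0.22056 to 0.49566 for Zbtb16 (liver day 7), from -0.032803 to 0.58578 for Fkbp5 (liver day 1 to day 3), from -0.036061 to 0.23038 for Tsc22d3 (liver day 3 to day 7), from -0.097908 to 0.31388 for Klf15 (liver day 3 to day 7), from -0.97275 to 0.095739 for Hsd11b1 (quadriceps day 1), from -0.3519 to 0.99551 for Hsd11b1 (quadriceps day 7), from -0.2242 to 0.27749 for Tsc22d3 (quadriceps day 7), from -0.042684 to 0.49207 for Klf9 (quadriceps day 7), from -0.1407 to 0.31275 for Ddit4 (quadriceps day 1 to day 3), from -0.11749 to 0.41546 for Errfi1 (quadriceps day 1 to day 3), from -0.59843 to 0.46487 for Hsd11b1 (the tissue difference at day 1) and from -0.079234 to 0.089687 for Nr3c1 (the tissue difference at day 7).

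Over all genes, calls moved by over 1.5 times as follows. Liver day 1 went from 3841 to 1307 and liver day 3 from 3967 to 7187 with only the compared groups. Liver day 3 to day 7 went from 175 to 580 with DESeq2 and 82 with the block. Quadriceps day 1 went from 720 to 1826, 208 and 2259 with DESeq2, the block and only the compared groups. Quadriceps day 7 went from 8 to 298, 1 and 2, and the tissue difference at day 7 from 905 to 1481 with DESeq2. Leave-one-out counts ran from 1797 to 5056 at liver day 1, 2382 to 4418 at liver day 3, 782 to 3354 at liver day 7, 2312 to 4843 from liver day 1 to day 3, 17 to 626 from liver day 3 to day 7, 0 to 1496 at quadriceps day 1, 825 to 2024 and 371 to 1313 for the tissue differences at days 1 and 7, and 0 to 51 at quadriceps day 7.

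With 3 sham libraries per tissue, each control carries much of a call at quadriceps day 1 and liver day 7. The lowest count behind a member was that of Ddit4 in sham, at 1.26 to 2.90 CPM, where few reads set the fold change.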
